A study of Caenorhabditis elegans with 2 samples.

Results

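Autosomal coding-exon regions away from gene starts are regions of eGFP-ZTF-4 ChIP enrichment whose summit, the base the authors mark as strongest, lay in a coding exon of a protein-coding gene on chromosomes I to V and more than 500 bp from the 5' end of every protein-coding gene. They were taken from the list called on both replicates together, the pooled list, in the ce11 build. The rule used position alone and no measured signal. It found 2858 regions, which were 11.8% of the 24126 autosomal regions and 9.53% of all 30000 pooled regions. A further 964 autosomal coding-exon regions were 500 bp or less from a 5' end and were kept as a comparison.

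The study mapped where ZTF-4, which carries a zinc finger, sits on chromatin in L3 larvae (the third larval stage) of the nematode C. elegans. It had 1 group of 2 biological replicates and no second condition. The animals were whole larvae of strain OP322, labelled as males and females pooled, of unknown age in hours, with the mutant allele unc-119(ed3) on chromosome III and the integrated insertion wgIs322, which targets ztf-4. The labels name neither the promoter that drives the tagged protein nor the genotype of the control sample. Signal from whole larvae averages over all tissues, so fewer cells with an occupied site and weaker occupancy per cell cannot be told apart.

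Zinc finger transcription factors bind short DNA words, and in the compact C. elegans genome their sites usually lie just upstream of genes, between genes or in introns. Coding exons carry the protein code, are richer in G and C than introns, and are packed between short introns, so that a region of enrichment called inside a gene often spans several exons and introns. ChIP-seq sequences DNA fragments pulled down with the tagged factor and reports stretches with more fragments than a control, with no strand and no base-level contact.

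The sequences at 7 of the strongest summits show what such regions look like, since the host exon, the distance to a splice site and the base composition all bear on the results that follow. Each line gives the 101 bases centred on a summit, 5' to 3' on the coding strand of the host gene, with coding bases in capitals and intron bases in lower case (ce11, with Ensembl gene models of the same assembly). The first pair lies in 1 exon of dos-3, which encodes a protein of the DOS-motif family of Notch co-ligands. The others lie in pals-26, of a family linked to the response to intracellular pathogens, tbg-1, the gene for gamma-tubulin, str-118, for a chemoreceptor of the str class, and T21H3.5 and F19H8.2, which have sequence names only.
dos-3, chrIII:835870-835970 (− strand): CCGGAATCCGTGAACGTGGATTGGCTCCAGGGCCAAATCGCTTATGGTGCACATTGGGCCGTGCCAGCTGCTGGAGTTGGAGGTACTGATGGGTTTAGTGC
dos-3, chrIII:836089-836189 (− strand): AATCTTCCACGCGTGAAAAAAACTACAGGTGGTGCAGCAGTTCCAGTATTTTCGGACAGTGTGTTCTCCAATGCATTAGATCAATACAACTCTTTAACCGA
pals-26, chrIII:4378690-4378790 (+ strand): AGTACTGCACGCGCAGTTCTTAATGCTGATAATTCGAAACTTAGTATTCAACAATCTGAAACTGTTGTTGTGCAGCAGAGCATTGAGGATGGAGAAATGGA
tbg-1, chrIII:9626872-9626972 (− strand): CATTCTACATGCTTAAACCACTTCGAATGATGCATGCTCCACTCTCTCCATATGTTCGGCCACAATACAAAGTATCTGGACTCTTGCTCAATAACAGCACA
T21H3.5, chrV:1158326-1158426 (− strand): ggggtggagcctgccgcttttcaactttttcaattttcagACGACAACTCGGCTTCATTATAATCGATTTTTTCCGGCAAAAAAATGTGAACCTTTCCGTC
str-118, chrV:10053367-10053467 (+ strand): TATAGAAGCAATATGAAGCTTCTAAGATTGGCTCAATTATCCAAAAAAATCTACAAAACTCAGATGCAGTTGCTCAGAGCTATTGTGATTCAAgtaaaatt
F19H8.2, chrII:14605309-14605409 (− strand): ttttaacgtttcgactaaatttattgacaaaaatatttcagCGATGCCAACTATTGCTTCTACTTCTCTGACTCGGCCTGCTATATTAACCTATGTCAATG
The windows of dos-3, pals-26 and tbg-1 were wholly coding. Those of T21H3.5 and F19H8.2 had 61 and 60 coding bases and crossed the 3' splice site of the preceding intron, and that of str-118 had 93. GC content ran from 31.7% in the str-118 window to 57.4% in the first dos-3 window.

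Most regions were mixtures of exon and intron. Their median width was 370 bp, and a median of 71.4% of the bases in a region were coding. Only 408 regions (14.3%) were wholly coding, and in 525 (18.4%) under 50% of the bases were. The median host exon was 260 bp long, and the median summit lay 59 bp from an exon edge, 2222 bp from the 5' end of its host and 1777 bp from the nearest 5' end of any protein-coding gene. No region had more than 1 host gene. Gene 5' ends were used in the rule, and 392 regions (13.7%) were 500 bp or less from the start of another annotated transcript. The 3 regions just inside the distance limit were those of srb-1 (501 bp, signal 7.01), F35C5.1 (502 bp, signal 7.40) and bag-1 (503 bp, signal 11.7). Just outside it were those of tag-164 (500 bp, signal 10.4), acdh-2 (496 bp, signal 6.01) and wwp-1 (495 bp, signal 16.9).

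Signal, the authors' own enrichment value for each region, was close to that of other classes over most of the range. The coding-exon regions ran from 5.79 to 95.5 with a median of 9.23 (middle 50% of regions 7.22 to 12.6), against a median of 9.48 (7.31 to 13.6) and a maximum of 265 over all autosomal regions. Regions in introns that were also more than 500 bp from 5' ends had a median of 8.98, those in 3' UTRs 9.98 and those between genes 9.36. Of the coding-exon regions, 1340 (46.9%, Wilson 95% interval 45.1 to 48.7) were above the autosomal median, against 45.2% of intron, 54.6% of 3' UTR and 49.0% of intergenic regions. The share for coding exons therefore lay between those for introns and 3' UTRs. Its interval did not reach 50% in the pooled list or in replicate 2's own list (46.4%, 44.5 to 48.3), but did in replicate 1's own list (49.2%, 47.7 to 50.8). The q-value of a region reached the ceiling of the deposited scale in 114 coding-exon regions (3.99%), against 1653 autosomal regions (6.85%).

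The IDR list holds the regions kept by the irreproducible discovery rate, a threshold computed from replicate ranks. It held 28 of the 2858 coding-exon regions (0.980%, interval 0.679 to 1.41), against 546 of all autosomal regions (2.26%). The share was 1.45% in introns (1.21 to 1.74), 2.37% in 3' UTRs (1.62 to 3.45), 2.23% between genes (1.89 to 2.64), 0.934% in coding exons nearer to 5' ends (0.492 to 1.76) and 0.606% in coding exons of the X chromosome more than 500 bp from 5' ends (0.206 to 1.77). The interval for the coding-exon regions did not overlap those of 3' UTR and intergenic regions, and it overlapped those of introns and of the other coding exons. The list followed signal: the weakest coding-exon region on it had signal 36.1 and the strongest one off it 35.7. Intervals cover counting over regions, not variation between animals, since all regions come from the same 2 libraries. Read numbers were not used here, so the depth behind each value is unknown.

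**Figure D1:**
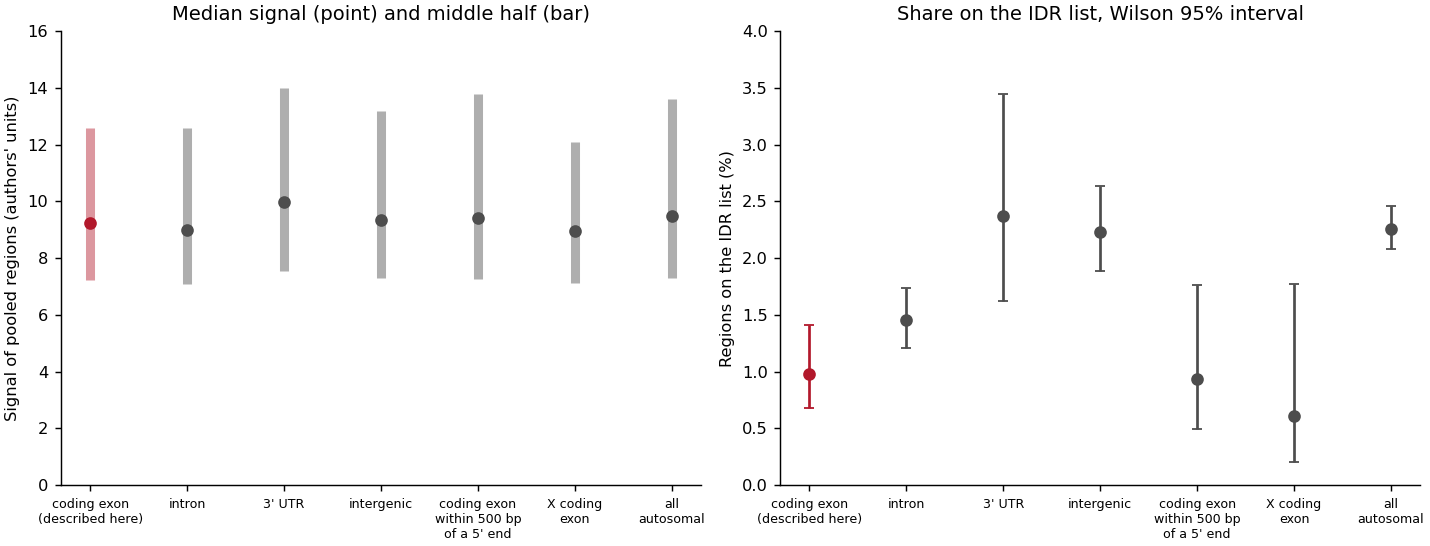
Left, median signal (points) and the middle 50% of regions (bars) in the authors' units, by class of annotation. Right, percent of each class on the IDR list with Wilson 95% intervals. Coding-exon regions (leftmost, red) had a median signal of 9.23, near the 8.98 of introns, and 0.980% of them were on the IDR list, against 2.26% of all autosomal regions.

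The 28 regions on the IDR list lay in 27 host genes of varied function. The strongest was in suro-1 on chromosome I, 7872030 to 7872571, with the summit in the last of 10 exons and 97.6% of the way along the coding sequence (signal 95.5, rank 55 of the pooled list). A pair of summits lay 219 bp apart in the last exon of dos-3, in regions of chromosome III at 835834 to 835932 (signal 73.1, rank 106) and 835954 to 836323 (signal 57.8, rank 182), whose sequences are given above. Between the 2 in signal was T28F4.4 on chromosome I (59.2), and after them came Y43F8B.2 on chromosome V (57.4) and F36A2.2 (55.6) on chromosome I.

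Genes of RNA synthesis, the cytoskeleton and signalling were among the other hosts. These included snpc-4 (signal 52, rank 251), which encodes a subunit of the SNAPc complex that drives snRNA transcription, tbg-1 (44, rank 409), and the protein kinase genes mnk-1 (40.2, rank 529) and mak-1 (39.0, rank 571), relatives of kinases activated by MAP kinases. The myotubularin-family lipid phosphatase gene mtm-3 (37.8, rank 623), the chaperone gene hsp-90 (36.8, rank 672) and the nuclear hormone receptor gene nhr-192 (36.1, rank 697) were near the lower end of the list. Members of large, variable families were pals-26 (50.9, rank 268), str-118 (44.1, rank 407) and the C-type lectin gene clec-264 (41.9, rank 466). Also on the list were grsp-1 (39.4), mstr-1 (45.3), brp-1 (41.4) and melo-1 (36.9). The remaining hosts, among them T21H3.5 (51.9), F19H8.2 (46.5), T19A5.3 (43.1), D2030.3 (42), F26A3.4 (40.9), C06B3.6 (39.6), ZK858.5 (38.4) and F01F1.3 (38.1), have sequence names only.

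How many of the coding-exon regions on the IDR list ranked high in both replicates depended on how close the replicate summits had to be. A partner is a replicate region whose summit and the pooled summit were each other's nearest and within 100 bp. Of the 28 regions on the IDR list, 24 had a partner in replicate 1, 25 in replicate 2 and 21 in both (75%), against 438 of 518 other autosomal regions on the list (84.6%). Over all autosomal regions, on the list or not, 36.5% had a partner in replicate 1, 67.6% in replicate 2 and 20.4% in both. Because the IDR list is computed from replicate ranks, higher partner shares on it are built into that choice. Each replicate's strongest regions, as many as the IDR list holds, were then taken. Among those of replicate 1 were 15 of the 28 (53.6%, interval 35.8 to 70.5), against 49.2% of the other autosomal regions on the list. For replicate 2 the count was 16 (57.1%, 39.1 to 73.5), against 75.9% (72.0 to 79.4). By their partners, 6 of the 28 were among the strongest of both (21.4%, 10.2 to 39.5), against 33.4% (29.5 to 37.6), intervals that overlap. With any of a replicate's strongest summits allowed up to 200 bp away, a rule tried later with these ranks known, the count was 12 (42.9%, 26.5 to 60.9), against 40% (35.8 to 44.2).

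The 6 regions strong in both by their partners were in T28F4.4 (replicate 1 rank 70, replicate 2 rank 216), F36A2.2 (126 and 390), snpc-4 (495 and 295), pals-26 (281 and 491), C06B3.6 (477 and 569) and grsp-1 (505 and 486). Their signals in replicate 1 were 30.8, 25.7, 15.8, 19.5, 16 and 15.7 in that order, and in replicate 2 40.3, 33.4, 36.4, 31.2, 29.5 and 31.2. The scaling of the replicate lists is not known, so ranks and not signals are set against each other. The region in tbg-1 came close, at rank 767 in replicate 1 and 567 in replicate 2.

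Some of the other regions on the IDR list had very unequal ranks in the replicates. In replicate 2, F19H8.2 had rank 188 and brp-1 rank 389, while their replicate 1 partners ranked 21484 and 21697. Conversely str-118 had rank 80 and mak-1 rank 107 in replicate 1, and ranks 2465 and 4995 in replicate 2. The regions of mstr-1, T19A5.3 and mnk-1 had replicate 2 ranks of 193, 194 and 289 and no partner in replicate 1, where the nearest summits were 169, 142 and 237 bp away, of ranks 413, 7072 and 1234. For the first dos-3 region, suro-1 and Y43F8B.2, replicate 2 had a strong summit nearby that was not a partner. These 3 regions had replicate 1 ranks of 198, 41 and 81 and no replicate 2 partner, and replicate 2 summits of ranks 74, 53 and 577 lay 180, 160 and 139 bp away. In dos-3 that replicate 2 summit was the partner of the other region of the pair, 39 bp from it, so that the replicates placed the enrichment in 1 exon with their summits apart. In suro-1 it was the partner, 42 bp away, of another pooled summit in the same interval, with signal 33.0 and off the IDR list.

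**Figure D2:**
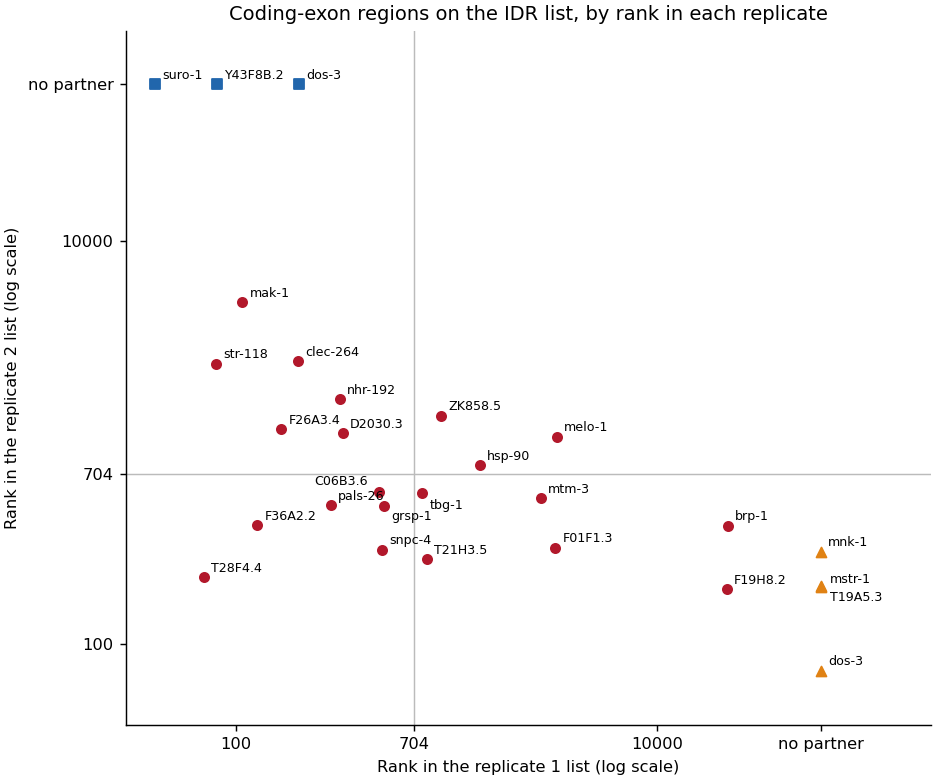
Rank of each coding-exon region on the IDR list in replicate 1 (horizontal) and replicate 2 (vertical), both on log scales, with 1 as the strongest. Red circles have partners in both replicates, orange triangles at the right edge none in replicate 1, and blue squares at the top none in replicate 2. Grey lines mark the rank that equals the length of the IDR list, and 6 regions lie below and left of both.

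Over all 2858 coding-exon regions, replicate 1 gave a partner more often, and replicate 2 less often, than for introns. A partner in replicate 1 was found for 1098 regions (38.4%, interval 36.7 to 40.2), against 33.1% of intron regions (32.1 to 34.2) and 36.5% of all autosomal regions. A partner in replicate 2 was found for 1746 (61.1%, 59.3 to 62.9), against 66.5% of intron regions (65.5 to 67.5) and 67.6% of all autosomal regions. Both replicates gave one for 500 (17.5%, 16.1 to 18.9), against 17.1% of intron regions and 20.4% of all autosomal regions, and neither for 514 (18%), against 16.3%. Coding exons of the X chromosome showed a like pattern, with 40.6% in replicate 1 and 58.2% in replicate 2. Coding exons nearer to 5' ends had 36.3% and 68.5%, close to the autosomal values.

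Partners depended on signal, and pooled signal comes from the same reads as the replicate lists, so the 2 are not independent. In the weakest 25% of the coding-exon regions (signal 5.79 to 7.22), 10 of 715 had partners in both replicates (1.40%) and 253 had none (35.4%). In the strongest 25% (12.6 to 95.5), 318 of 715 had both (44.5%) and 28 had none (3.92%). Replicate 2 gave more partners than replicate 1 at either end, with 38.9% and 27.1% in the weakest 25% and 81.7% and 58.9% in the strongest. Across the 500 regions with both partners, replicate signals had a Spearman's rho of 0.301, against 0.385 over 1365 intron pairs, 0.426 over 1193 intergenic pairs and 0.423 over 4928 autosomal pairs. These correlations are across regions that share the same libraries and are given as descriptions.

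With rising GC content, the replicate 1 share rose in coding exons, in introns and between genes. The replicate 2 share fell in coding exons and changed little in introns and between genes. The median GC content of the 101 bases at a summit was 41.6% for coding-exon regions, against 33.7% over all autosomal regions, 31.7% in introns and 31.7% between genes. Autosomal regions were split into 3 classes of equal size at 29.7% and 37.6% GC, and 1903 coding-exon regions (66.6%) fell in the GC-rich class, against 24.6% of intron regions. Within the GC-rich class, the share with a replicate 1 partner was 40.5% for coding-exon regions (38.3 to 42.7), against 44.8% for intron regions (42.6 to 47), intervals that just overlap, and 47.3% for intergenic regions (44.8 to 49.7). The share with a replicate 2 partner was lower there, at 59.0% (56.8 to 61.2), against 67.8% (65.7 to 69.8) and 68.3% (66.0 to 70.6). The share with both was lower too, at 18.2% (16.5 to 20), against 26.3% (24.4 to 28.3) and 30% (27.8 to 32.3). In the middle class the replicate 1 share was 34.6% (31.4 to 38.0), against 33.2% for introns (31.4 to 35.1), and the replicate 2 share 64.2% (60.9 to 67.5), against 67.1% (65.2 to 68.9). The GC-poor class had 158 coding-exon regions, with 32.9% (26.1 to 40.6) against 26.5% (25.1 to 28) in replicate 1 and 70.3% (62.7 to 76.8) against 65.4% (63.8 to 66.9) in replicate 2. The intervals of coding exons and introns overlapped in the middle and GC-poor classes in both replicates. Between genes the GC-poor and middle shares were 27.1% and 34.1% in replicate 1, and 68.4% and 68.1% in replicate 2.

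Signal followed GC in introns and between genes and hardly at all in coding exons. Median signal in the GC-poor, middle and GC-rich classes was 9.27, 9.23 and 9.22 for coding-exon regions, against 8.41, 9.13 and 10.5 for intron regions and 8.74, 9.25 and 11.1 for intergenic regions. Taken by the same rule from each replicate's own list, coding-exon regions made up 16.5% of the autosomal regions of replicate 1 (3915 of 23680) and 11.2% of those of replicate 2 (2695 of 24106). The autosomal regions of replicate 1 were richer in GC, with a median of 35.6% against 32.7% in replicate 2. Within the GC classes the coding-exon share was 2.55%, 13.3% and 28.7% in replicate 1, and 1.86%, 10.7% and 23.2% in replicate 2, so replicate 1 was higher in each. The part of GC in these differences was not tested beyond this split.

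**Figure D3:**
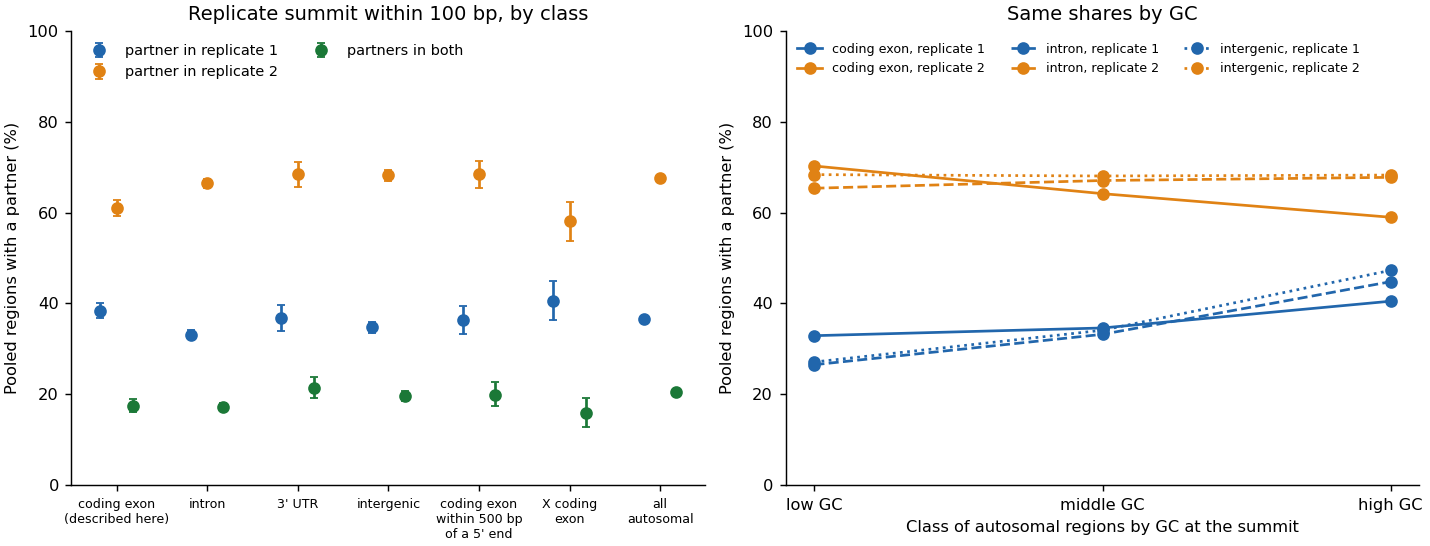
Left, percent of pooled regions with a replicate summit within 100 bp, by class, with Wilson 95% intervals: replicate 1 in blue, replicate 2 in orange, both in green. Right, the replicate 1 and replicate 2 shares in 3 classes of GC content at the summit, for coding-exon (solid), intron (dashed) and intergenic regions (dotted). In the GC-rich class the coding-exon points lie below the others in both replicates, at 40.5% and 59.0%.

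Along the gene, coding-exon regions were spread over the whole coding sequence, and those on the IDR list were mostly near its end. Position was read along the longest coding transcript of the host, which placed all but 56 regions, and was set against the eligible bases, the 16.2 Mb of such coding sequence more than 500 bp from every 5' end. The sequence was cut into 3 parts of 33.3% each. In the 3' part lay 1162 regions (41.5%, interval 39.7 to 43.3), against 39.5% of eligible bases. The 5' part had 691 (24.7%, against 21.6% of eligible bases) and the middle part 949 (33.9%, against 38.9%). Density was thus lowest in the middle of the coding sequence. In steps of 10%, the first step held 4.28% of regions and 2.87% of eligible bases, the fifth 9.60% and 11.5%, and the last 13.5% and 11.2%.

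Of the 28 regions on the IDR list, 20 were in the 3' part (71.4%, interval 52.9 to 84.7), and the remaining 8 were divided evenly between the 5' part and the middle. In 12 the summit was in the last coding exon (42.9%, 26.5 to 60.9), against 16.6% of eligible bases, and in 15 it was within 500 bp of the host's 3' end (53.6%, 35.8 to 70.5), against 20.1%. Besides suro-1, those nearest the stop codon were T19A5.3 at 96.6% of the coding sequence, melo-1 at 95.9%, dos-3 at 95.2% and pals-26 at 93.0%. At the other end were F19H8.2 at 9.90%, 510 bp from its 5' end, brp-1 at 13.1%, T28F4.4 at 21.4% and snpc-4 at 32.5%. In 3 of the 28 the summit was within 500 bp of an annotated transcript start: melo-1 (228 bp), F19H8.2 (338 bp) and brp-1 (105 bp). The suro-1 summit was 224 bp from the host's 3' end, and its nearest protein-coding 5' end was 3238 bp away.

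The share near the 3' end was also larger in the stronger classes of the whole set. By classes of 25% of the regions, from weakest to strongest signal, 39.3%, 36.4%, 43.3% and 46.9% of regions were in the 3' part, and 15.2%, 17.1%, 20% and 28.1% were within 500 bp of the 3' end. As many pooled regions again, those next in rank below the IDR list, included 38 coding-exon regions, of which 21 were in the 3' part (55.3%, 39.7 to 69.9). The strongest regions of replicate 1 included 45 coding-exon regions, and 24 of the 44 that could be placed were in the 3' part (54.5%, 40.1 to 68.3). Those of replicate 2 included 29, with 17 in the 3' part (58.6%, 40.7 to 74.5). All 3 shares were above the 39.5% of eligible bases, and the lower bounds of their intervals lay close to it.

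**Figure D4:**
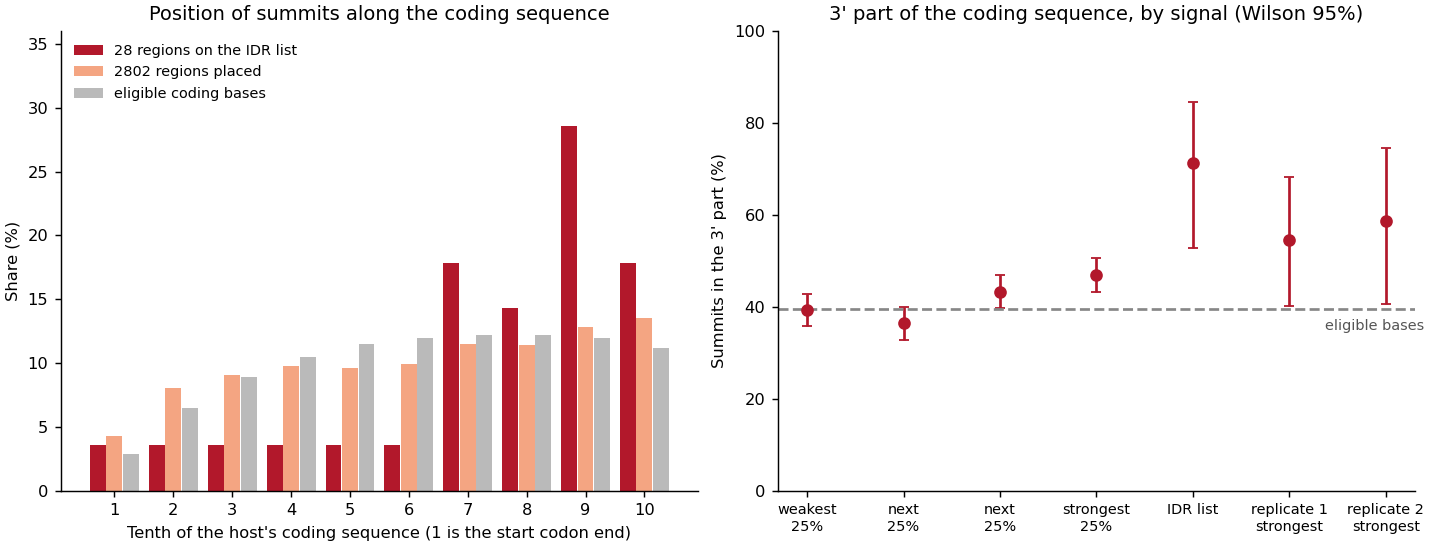
Left, percent of summits in each 10% step of the host coding sequence for the 28 regions on the IDR list (dark red), all placed regions (light red) and the eligible coding bases (grey). Right, percent in the 3' part by signal class, on the IDR list and among the strongest regions of each replicate, with Wilson 95% intervals and the eligible share of 39.5% dashed. The IDR regions stand at 71.4%, and the strongest 25% at 46.9%.

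Regions were fewer on chromosome V and more frequent on chromosome III than eligible bases. Chromosome V held 18.2% of placed regions (16.8 to 19.7), against 25.2% of eligible bases, and chromosome III 22.8% (21.3 to 24.4), against 17.4%. Exons of 150 bp or less held 22% of summits, against 20.2% of eligible bases, and exons of over 150 to 300 bp held 34.7%, against 31.4%. Exons over 600 bp held 18.7%, against 21.5%. Per Mb of eligible sequence, chromosome III had 226 placed regions, I had 187, II had 176, IV had 169 and V had 124. On the IDR list the counts were 8 on I, 3 on II, 7 on III, 1 on IV and 9 on V. The middle 33.3% of each chromosome by length held 45% of regions and 40.5% of eligible bases. Only 41 coding-exon regions (1.43%) had any summit-window word of 31 bases that recurs in the genome, against 5.28% of all autosomal regions and 7.75% of intron regions, and none on the IDR list did. Another IDR summit lay within 1000 bp of 98 coding-exon regions (3.43%), against 2.63% of all autosomal regions, and of 5 of the 28 on the IDR list. The dos-3 pair, each region the neighbour of the other, is among these 5. The same share over other autosomal regions on the IDR list was not counted. A tRNA, snoRNA, snRNA or miRNA gene lay within 200 bp of 35 of the 2858 coding-exon regions, none of them among the 28 on the IDR list. With so small a share of the whole set, none among 28 is no result about the IDR regions. The share over all autosomal regions was not counted.

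The word GACGCA, which was picked on these same data as frequent at summits, was no more frequent at coding-exon summits than beside them. Read on both strands within 50 bp of the summit, it occurred in 55 of 2858 (1.92%, interval 1.48 to 2.50), against 3.31% of all autosomal regions, 2.24% of intron and 3.70% of intergenic regions. Windows of the same length centred 300 bp to either side of the coding-exon summits held it in 2.03%, against 2.25% for all autosomal regions. None of the 28 on the IDR list held it, also within 100 bp, which allows a share of up to 12.1%. A match or its lack describes these letters only.

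The regions fell in 2056 of 15597 autosomal genes with eligible coding sequence (13.2%). Of these hosts, 1533 had 1 region, 367 had 2 and 156 had 3 or more. The most, 15, were in lrp-1, the gene for a large lipoprotein receptor of the megalin type, with signals of 6.47 to 22.1. Of the 15 regions, 12 had a partner in replicate 2 and 2 in replicate 1. The reticulon gene ret-1 had 12, with signals of 6.09 to 35.6, 11 with a partner in replicate 2 and 5 in replicate 1. After these came pod-2, which encodes acetyl-CoA carboxylase, with 9, the WNK kinase gene wnk-1 with 8 and lrp-2, a relative of lrp-1, with 8, of which 5 had a partner in replicate 1 and 1 in replicate 2. All 5 are long genes, with 14.2 kb of eligible coding sequence in lrp-1, 9.81 kb in ret-1, 6.19 kb in pod-2, 5.54 kb in wnk-1 and 14.5 kb in lrp-2. In the same order they held 1.06, 1.22, 1.45, 1.44 and 0.552 regions per kb, all above the 176 per Mb of all genes. They were picked for their counts, so high densities are partly a matter of that choice. None of their regions was on the IDR list, and regions within 1 gene are not independent of each other.

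The strongest coding-exon regions off the IDR list with partners in both replicates followed directly below it in signal. The region in the dynein heavy chain gene dhc-4 had signal 35.7 (replicate 1 rank 2846, replicate 2 rank 747), and its summit was 76 bp from the snRNA gene R07E5.16 and 200 bp from an IDR summit. The summit in ret-1 with signal 35.6 (ranks 8450 and 630) lay in an exon of 7827 bp. The gene ida-1, for a dense-core vesicle protein, had signal 35.2 (ranks 1011 and 2148), with a tRNA gene 198 bp away. The region in egl-9, which encodes the prolyl hydroxylase that marks HIF-1 for destruction, had signal 34.6 (ranks 13675 and 422), and that in gldi-3 signal 34.6 (ranks 980 and 1159).

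By gene family, hosts were frequent among heat shock, chaperone and proteasome genes and rare among chemoreceptor, F-box, BATH and MATH, and C-type lectin genes. Gene counts depend on length, so densities per Mb of eligible coding sequence stand beside them. Over all genes the density was 176 per Mb in the pooled list, 241 in replicate 1 and 166 in replicate 2. These densities also count regions outside the host's longest coding transcript. Placed regions alone gave 172 per Mb in the pooled list. Heat shock and chaperone genes were hosts in 17 of 51 cases (33.3%, interval 22 to 47), against the 13.2% of all genes. Their 26 regions gave 510 per Mb in the pooled list, 824 in replicate 1 and 550 in replicate 2. The strongest after hsp-90 were in hsp-110 (signal 29.2) and hsp-6 (26.6), the mitochondrial Hsp70. Proteasome genes were hosts in 9 of 33 cases (27.3%, 15.1 to 44.2) at 487 per Mb, led by rpn-8 with regions of 24 and 21, and densities of 797 in replicate 1 and 487 in replicate 2.

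The vacuolar ATPase, the proton pump of acidic organelles, had 11 regions in 4 of 13 genes (30.8%, 12.7 to 57.6). Its density was 653 per Mb, and 593 in each replicate list. The strongest regions were in vha-11 (20) and vha-13 (18.2 and 16.2). Oxidative phosphorylation genes had 7 regions in 5 of 28 genes (17.9%, 7.88 to 35.6) at 401 per Mb. They were led by the complex III subunit gene ucr-2.3 (23.9 and 16.5). Splicing factor genes were hosts in 12 of 37 cases (32.4%, 19.6 to 48.5) at 318 per Mb, though with signals no higher than the 13.2 of rsp-8. Cytosolic ribosomal protein genes were hosts in 7 of 48 cases (14.6%, 7.25 to 27.2). Host intervals of the vacuolar ATPase, oxidative phosphorylation and ribosomal protein lists include the 13.2% of all genes. Ribosomal protein genes had the highest pooled density among lists of 10 or more genes, 736 per Mb, from 7 regions in 9.51 kb of eligible sequence. None of these 7 had partners in both replicates, the density was 526 in replicate 1 and 105 in replicate 2, and the strongest, in rpl-4, rpl-13 and rps-13, had signals of 13.8, 12.7 and 10.2.

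Among regulators of transcription and chromatin, nuclear hormone receptor genes lay above the density of all genes in the pooled list and both replicates, and the other lists did not keep to 1 side of it. Nuclear hormone receptor genes were hosts in 46 of 245 cases (18.8%, 14.4 to 24.1) at 280 per Mb (346 in replicate 1, 276 in replicate 2), led after nhr-192 by 2 regions of nhr-105 (35.4 and 29.3). Chromatin regulators were hosts in 17 of 72 cases (23.6%, 15.3 to 34.6) at 248 per Mb, led by the histone demethylase gene jmjd-2 (18.7), set-18 (16.4) and the histone deacetylase gene hda-2 (16.1). Their density was 361 in replicate 1 and 156 in replicate 2, below the 166 of all genes. Zinc finger genes named ztf had 7 regions in 5 of 22 genes (323 per Mb), led by ztf-26 (26.1), with 230 in replicate 1, below the 241 of all genes, and 369 in replicate 2. Homeobox genes had 5 regions in 5 of 57 genes (109 per Mb, below the average), with 175 in replicate 1, also below, and 197 in replicate 2, above it.

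Muscle genes, spectrin, dynein and kinesin genes, and matrix genes, many of them long, were often hosts but at low density, unlike cuticle collagen genes. Muscle and sarcomere genes were hosts in 11 of 29 cases (37.9%, 22.7 to 56.0), yet at 77.4 per Mb, below the average, with unc-89, the gene for a giant muscle protein, as the leading member at 12.9. Spectrin, dynein and kinesin genes (8 of 20 genes, 14 regions in 125 kb) and basement membrane and matrix genes (6 of 16, 117 per Mb) were alike in this. Cuticle collagen genes were hosts in 15 of 142 cases (10.6%, 6.51 to 16.7) at 218 per Mb, with 381 in replicate 1 and 239 in replicate 2, above the averages, led by dpy-13 (22.8 and 21.2) and dpy-4 (21.9). The neuronal list had 21 regions in 11 of 29 genes (150 per Mb).

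Chemoreceptor, F-box, BATH and MATH, and C-type lectin genes held few regions on both scales. Chemoreceptor genes were hosts in 43 of 1324 cases (3.25%, 2.42 to 4.35) at 54.9 per Mb, with 110 in replicate 1 and 69.8 in replicate 2, all below the averages of 176, 241 and 166. The F-box, BATH and MATH genes were hosts in 11 of 374 cases (2.94%, 1.65 to 5.19) at 45 per Mb, and C-type lectin genes in 5 of 235 cases (2.13%, 0.912 to 4.88) at 28.3 per Mb. Even so, str-118 and clec-264 were on the IDR list, and str-118 held another region of signal 18.2. Argonaute genes had 1 region in 23 genes, in alg-2 (signal 9.67), but 289 per Mb in replicate 1. Translation factor genes (236 per Mb) and tubulins (240) lay above the density of all genes in the pooled list and both replicates. Neuropeptides (224) lay above it in the pooled list. Below it were UDP-glucuronosyltransferases (140), RNA polymerase subunits (120), nuclear pore genes (118) and aminoacyl-tRNA synthetases (110). So were cytochrome P450 genes (105), potassium channels (87.3) and ABC transporters (63.5). Each of these lists had between 3 and 11 regions. Histones had 1, in his-72, and the 1 vitellogenin gene with eligible sequence had none. No major sperm protein gene had eligible sequence.

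**Figure D5:**
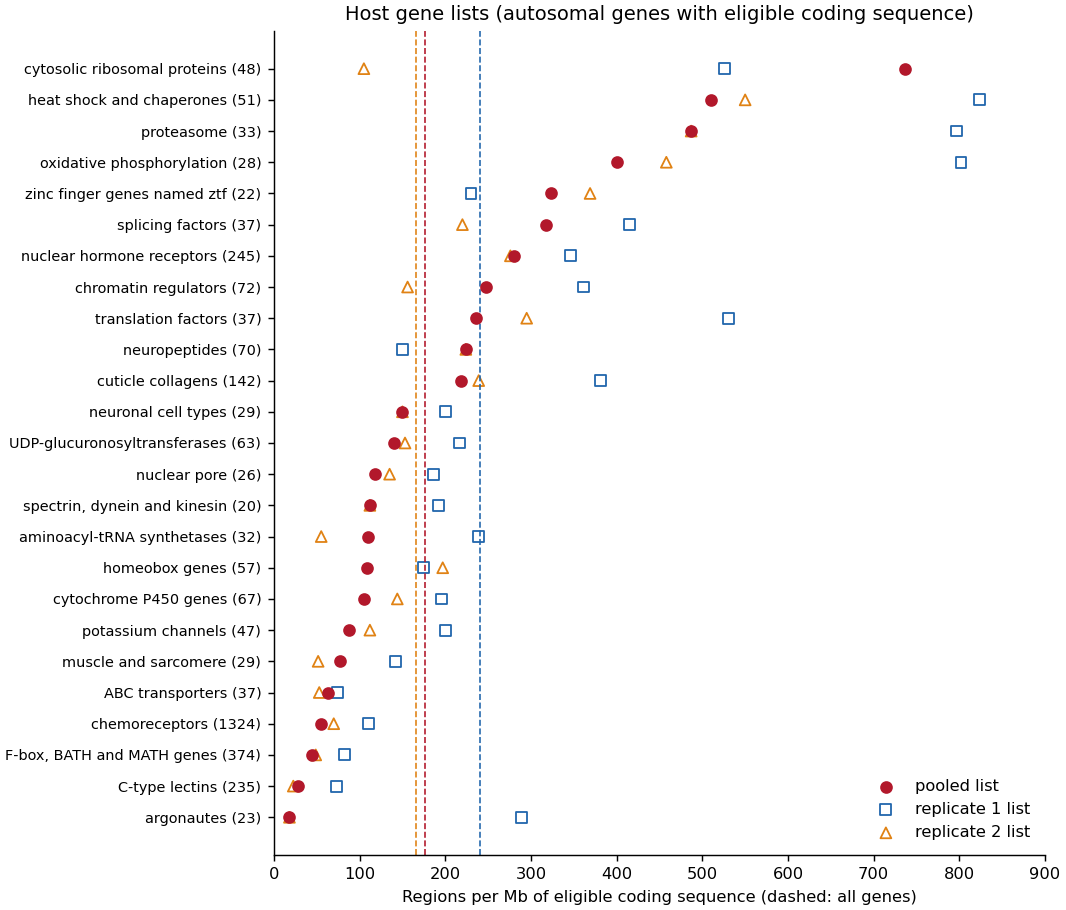
Coding-exon regions per Mb of eligible coding sequence for the gene lists with 20 or more genes (number in brackets): pooled list (red circles), replicate 1 (blue squares) and replicate 2 (orange triangles). Dashed lines give the values over all genes, 176, 241 and 166. Chaperone, proteasome and oxidative phosphorylation genes lie above the line in all 3 lists, and chemoreceptor, F-box and C-type lectin genes below it.

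The 2 genes the transgene strain was built with differed. The gene ztf-4 itself, on chromosome I at 6926257 to 6929665, had no pooled region anywhere in it, with 925 eligible coding bases. The gene unc-119, on chromosome III at 10902641 to 10908935, held 6 pooled regions, 2 of them in coding exons away from gene 5' ends, within 671 eligible bases. Their signals were 29.4 (pooled rank 1189, replicate 1 rank 17511, replicate 2 rank 654) and 15.7 (rank 5484, replicate ranks 9589 and 11746). The summit of the weaker region was 62 bp from an annotated transcript start. Transgenic wgIs strains are usually selected with an unc-119 rescue construct, and its part in these 2 regions was not tested.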

How the data were processed

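ChIP-seq of eGFP-ZTF-4 was available as narrowPeak lists in ce11 for replicate 1, replicate 2, both together (pooled) and the IDR selection. Per the labels, the ce10 build was also used for lists, which were not used here, and library fragments were selected by size. The candidate lists were called by the authors on alignments against a control, per the deposited inventory text. The aligner, peak caller, IDR threshold and the definition of the signal are not given in the sources used here. The signal value of each region and its −log10 q-value were used as the authors deposited them. Signal ranks regions within a list, and scales were not compared between lists. Signal tracks and read numbers were not used here. The labels give the replicates as biological, and the antibody entry names ztf-4.

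From these files, summits (start plus offset, 1-based) were classed with Ensembl release 115 gene models on the ce11 sequence, with coding exons given priority over UTRs, introns and non-coding genes. Partners were reciprocally nearest summits within 100 bp. Eligible bases were coding bases of each autosomal gene's longest coding transcript more than 500 bp from all protein-coding 5' ends. Shares have Wilson 95% intervals, and no hypothesis test was run, since there is 1 group. The members, the 33 gene lists (by gene name) and the word GACGCA were chosen with earlier results of these data known. Named regions were all on the IDR list, up to 3 per gene list by signal, the 5 hosts with most regions, the 5 strongest others with both partners, 3 on either side of the distance limit, ztf-4 and unc-119. The limit for the IDR list was 25, so melo-1 was named after its values were seen. Alternatives were other distances to 5' ends, all transcripts' 5' ends, other partner distances, a shorter top list, each replicate alone, and position with introns. Alternatives for the position and replicate ranks of the IDR regions were added after seeing the data. Scripts were tested on simulated regions and used Python 3.11.15 with pandas 2.3.3, numpy 2.4.6, matplotlib 3.10.9 and scipy 1.17.1.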

Additional observations from a re-analysis of the deposited data

How the results depend on the processing

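The number of regions was 2187 to 3915 over all settings, and the share on the IDR list 0.898% to 1.01%, except 0.350% with the stronger 50% of that list. Without replicate 1 and without replicate 2, where each replicate's strongest regions stand in for that list, it was 1.08% and 1.15%. The share above the median signal was 46.4% without replicate 1 and 49.2% without replicate 2, where its interval reached 50%. The share in the 3' part of the coding sequence, 41.5% as reported, was 38.4% over 250 bp from 5' ends and 43.9% over 1000 bp. With the 5' ends of all transcripts it was 44.7%, and the eligible share also moves with the distance rule. Along the gene with introns the share of regions was 43.7% (41.9 to 45.5), against 42.3% of eligible bases, which lies inside that interval. On the IDR list only, the share in the 3' part was 71.4%. For the IDR regions themselves, settings added after seeing the data gave 69.0% to 81.8%, with 70.4% when each host was counted once. Other sets of strong regions gave 54.5% (replicate 1), 58.6% (replicate 2) and 55.3% (the next pooled ranks), and the replicate sets overlapped the IDR regions. The share of IDR regions strong in both replicates, 21.4% by partners, was 42.9% with strong summits up to 200 bp away. Shares with partners in both replicates were 9.66% within 50 bp and 26.6% within 200 bp, against 17.5% within 100 bp. A partner in 1 replicate alone was found for 38.4% to 61.1%, depending on which replicate was left out. Genes of the lists that were hosts numbered 289, but 66 when counting regions with both partners only, and 293 to 451 in single replicates. The word GACGCA occurred in 4.51% within 100 bp, and in 0 of the IDR regions. Of the 29 gene lists with 10 or more genes, 9 were above and 14 below the density of all genes in the pooled list and both replicates. The other 6 changed side in 1 replicate: ribosomal protein, chromatin regulator, argonaute, homeobox, ztf and neuropeptide genes. No paired analysis was possible because there is 1 group, with no second group to share replicate numbers. Depth is unknown, 2 replicates give no estimate of variation between animals, and a control list of factor-independent enrichment was not used here, so occupancy by ZTF-4 at any single exon was not tested.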
